A study of Drosophila melanogaster with 25 samples.

Results

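The cells described here are clock neurons of the adult Drosophila melanogaster brain that carry the transcript of the vesicular glutamate transporter VGlut and lack those of the neuropeptide genes CNMa, CCHa1 and AstC. Levels are given in TP10K, transcripts of a gene, counted by unique molecular identifiers (UMIs) and scaled to 10000 UMIs, for single cells or for the summed cells of a group. The members were chosen by measured levels of the genes that follow. A cell was a member with VGlut at 10 TP10K or more, CNMa under 2, CCHa1 under 5 and AstC under 10 TP10K, at least 3 UMIs of the clock genes tim, vri, Clk and cry together, and at most 1 UMI of the vesicular monoamine transporter Vmat. These limits were met by 151 of the 5184 cells profiled by 10X Chromium (2.91%), 84 of 2888 in the library of ZT02 and 67 of 2296 in that of ZT14. The members were 14.7% of the 1026 cells that met the clock gene and Vmat limits, called clock cells below, and 36.7% of the 411 clock cells with VGlut at 10 TP10K or more.

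Both libraries came from flies of a single stable line in which TH-GAL4 and Clk856-GAL4 together drove EGFP, so that dopaminergic neurons (DANs) and clock neurons were sorted together. Male and female flies in equal numbers were entrained to light and dark, and brains were taken at ZT02, which is 2 hours after lights on, or at ZT14, with 1 library at each time and no other treatment; the age of the flies is not given in the sources used here. EGFP-positive cells with a stained nucleus were sorted after papain digestion in the presence of blockers of neuronal activity. Clk856-GAL4 reaches only a few of the DN3 clock neurons, and each driver misses part of its expected pattern. The whole series holds 6700 cells in 25 samples, and of its 1516 CEL-seq2 cells, sorted from TH-GAL4 alone, 0 met the rule, which allows a share of up to 0.198%, and 5 met the clock gene and Vmat limits, so no comparison was made there.

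Clock neurons keep time with a loop in which Clk and cyc activate per, tim, vri, Pdp1 and cwo, and the proteins of per and tim repress that activation. The dorsal clock neurons are named by position as DN1a, DN1p, DN2 and DN3. DN1p neurons are known for gating sleep and evening activity and for taking in light and temperature, and many dorsal clock neurons release glutamate, which VGlut loads into synaptic vesicles. In the BDGP6.54 annotation, VGlut lies at chromosome 2L, 2400295-2410662, on the plus strand. The markers given with the cells, other than VGlut, are CG9650, which encodes a zinc finger protein, Dop1R2, a dopamine receptor gene (chromosome 3R, 29630304-29659984, minus strand), and beat-IIIc of the beaten path family of immunoglobulin surface proteins (chromosome 2L, 17187637-17260734, minus strand).

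VGlut in the members stood at 31.7 TP10K at ZT02 and 26.8 TP10K at ZT14, with single cells from 10.2 to 68.3 TP10K. The 3 members nearest the limit had 10.2, 10.3 and 10.4 TP10K, and the 3 nearest cells outside it had 9.89, 9.73 and 9.62 TP10K. No gap therefore marks the VGlut limit, and 430 cells stayed out by it alone. The peptide limits fell in wide gaps. The highest CNMa level in a member was 1.06 TP10K against 10.1 TP10K in the nearest of the 22 cells kept out by CNMa alone. CCHa1 reached 1.93 TP10K in a member and began at 73.5 TP10K in the 63 cells kept out by it, and AstC reached 7.82 TP10K against 25.8 TP10K in the nearest of 56 cells. The clock gene limit left out 260 cells that met every other limit, and 9 members stood exactly at 3 clock gene UMIs, all of them in the ZT02 library, where the median was 7 UMIs against 41 at ZT14. All of these values chose the cells and are given as a description.

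Depth per member was a median of 7702.5 UMIs at ZT02 and 10154 UMIs at ZT14, over 2353 and 2608 detected genes, and the members summed to 649768 and 679453 UMIs. The 875 other clock cells (425 at ZT02, 450 at ZT14) had medians of 8423 and 10179.5 UMIs. Of these, 260 cells (124 and 136) had VGlut at 10 TP10K or more and are called the other glutamatergic clock cells, with medians of 8906.5 and 12894.5 UMIs. They were kept out by AstC in 175 cells, by CNMa in 141 and by CCHa1 in 63, where a cell may pass more than 1 of these limits. No cell barcode was shared between the libraries. Transcripts of mitochondrial genes took 0.332% of the members' UMIs at ZT02 and 1.13% at ZT14, against 0.555% and 1.504% in the other clock cells.

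The neuronal markers elav and nSyb stood at 6.76 and 26.3 TP10K at ZT02 and at 7.30 and 21.4 TP10K at ZT14. No UMI of repo, the defining gene of glia, of the photoreceptor opsin ninaE, of Gad1, which makes GABA, or of the serotonin transporter SerT was found among 1329220 UMIs, so that each lay under 0.0226 TP10K, the level of 3 UMIs. The 10 glial markers together reached 0.846 TP10K at ZT02 and 0.427 TP10K at ZT14. Most of the first value was the glutamate transporter gene Eaat1, which had 31 UMIs in members at ZT02, all in 11 of the 15 cells there that matched cluster 11 of the study (2.76 TP10K). Against the other glutamatergic clock cells, Eaat1 was called higher in members (log2 difference 4.18 ± 0.52, edgeR adjusted p = 0.0043), 1 of 2 glial markers tested there. The 13 photoreceptor markers summed to 4.49 and 3.68 TP10K in members and 3.46 and 3.15 TP10K in the other clock cells. VGAT, the vesicular GABA transporter gene, had a UMI in 42.9% and 38.8% of members and in 33.0% and 42.2% of the dopaminergic cells of the same libraries, so its share in members is not read as expression. Of the dopamine synthesis genes, ple stood at 0.277 and 0.486 TP10K, with 2 or more UMIs in 8 members, whereas Ddc stood at 11.6 and 8.54 TP10K and was read in 82 of 84 and 66 of 67 members. The 5 dopaminergic markers summed to 13.3 and 11.7 TP10K in members, 10.1 and 12.5 TP10K in the other clock cells and 163 and 156 TP10K in dopaminergic cells. Among markers of other clock neurons, NPF had 3 UMIs and Trissin 7 in all members. Pdf had 271 UMIs, of which 1 cell held 171.

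The 3 markers were not carried by all members. CG9650 was read in 122 of the 151 cells, beat-IIIc in 134 and Dop1R2 in 82, while 63 cells had all 3 and 10 cells had none. In the sums, CG9650 stood at 15.01 TP10K at ZT02 and 17.6 TP10K at ZT14 in members, at 1.13 and 1.2497 TP10K in the other clock cells, and at 0.359 and 0.198 TP10K in the other glutamatergic clock cells. For beat-IIIc the members had 12.3 and 13.5 TP10K, the other clock cells 1.81 and 1.87 TP10K. Dop1R2 was at 5.19 and 2.43 TP10K against 0.646 and 0.652 TP10K. All 3 were higher in the members in each library, and because they were given as markers with these data known they carry no p here. Single clusters of other clock cells, matched as described below, also carried them. Over both libraries, beat-IIIc stood at 12.2 TP10K in cluster 12 against 12.9 TP10K in members, and CG9650 at 8.84 TP10K in cluster 1 against 16.3 TP10K. Dop1R2 stood at 13.5 TP10K in cluster 11 and 3.20 TP10K in cluster 14, against 3.78 TP10K in members. Medians over 15 such clusters were 1.31 TP10K for beat-IIIc, 0.0370 for CG9650 and 0.110 for Dop1R2. With every cell thinned to 2000 UMIs, 72.6% of members at ZT02 (95% exact interval 61.8% to 81.8%) and 70.1% at ZT14 (57.7% to 80.7%) had a CG9650 UMI, against 8.64% and 8.62% of the other clock cells and 16.4% and 18.8% of DANs. DANs in this paragraph and below are the cells with Vmat at 2 or more UMIs and at most 1 clock gene UMI (1342 at ZT02, 896 at ZT14, with medians of 6066.5 and 8374.5 UMIs). Intervals cover counting error only.

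The members were not of a single kind. The study's table of mean levels per cluster served as a map, and the correlation of a cell with each cluster over 330 genes, those of the rule left out, gave its match. A total of 144 cells matched 5 clusters, with a median correlation of 0.80 over the members. Cluster 5, which the study named DN1p, took 76 cells (48 at ZT02, 28 at ZT14) and 50.3% of members. Cluster 11, also DN1p, took 27 cells (15 and 12). Cluster 29, named DN2, took 21 (9 and 12), cluster 34, named DN3, took 11 (4 and 7), and cluster 38, DN1p, took 9 (4 and 5), fewer than the 10 cells set as a minimum for a description of its own. Cluster 5 made up 57.1% of members in the ZT02 library and 41.8% in the ZT14 library, so the mixture differed between the times. Grouped without reference to the study, the members formed 9 Leiden clusters, 7 of them from 1 library only, and 143 of the 151 cells lay in a Leiden cluster whose commonest match was their own.

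Levels below are given as ZT02 and then ZT14 of each cluster, and a cluster's leading genes were among those that matched it, so they describe the cluster and test nothing. In cluster 5, CG9650 stood at 20.6 and 26.6 TP10K and beat-IIIc at 17.6 and 20.8 TP10K, with both genes read in all 76 cells. CG15765 was at 54.4 and 12.1 TP10K. Genes of cluster 5 that took no part in the match were dpr8 of the dpr family of surface proteins at 8.88 and 5.87 TP10K, the octopamine receptor gene Octalpha2R at 6.79 and 18.3 TP10K, and GluRIB, a subunit of AMPA-type glutamate receptors, at 8.08 and 11.2 TP10K. Those 3 were the genes outside the match among the 5 with the largest difference from the other members.

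**Figure D1:**
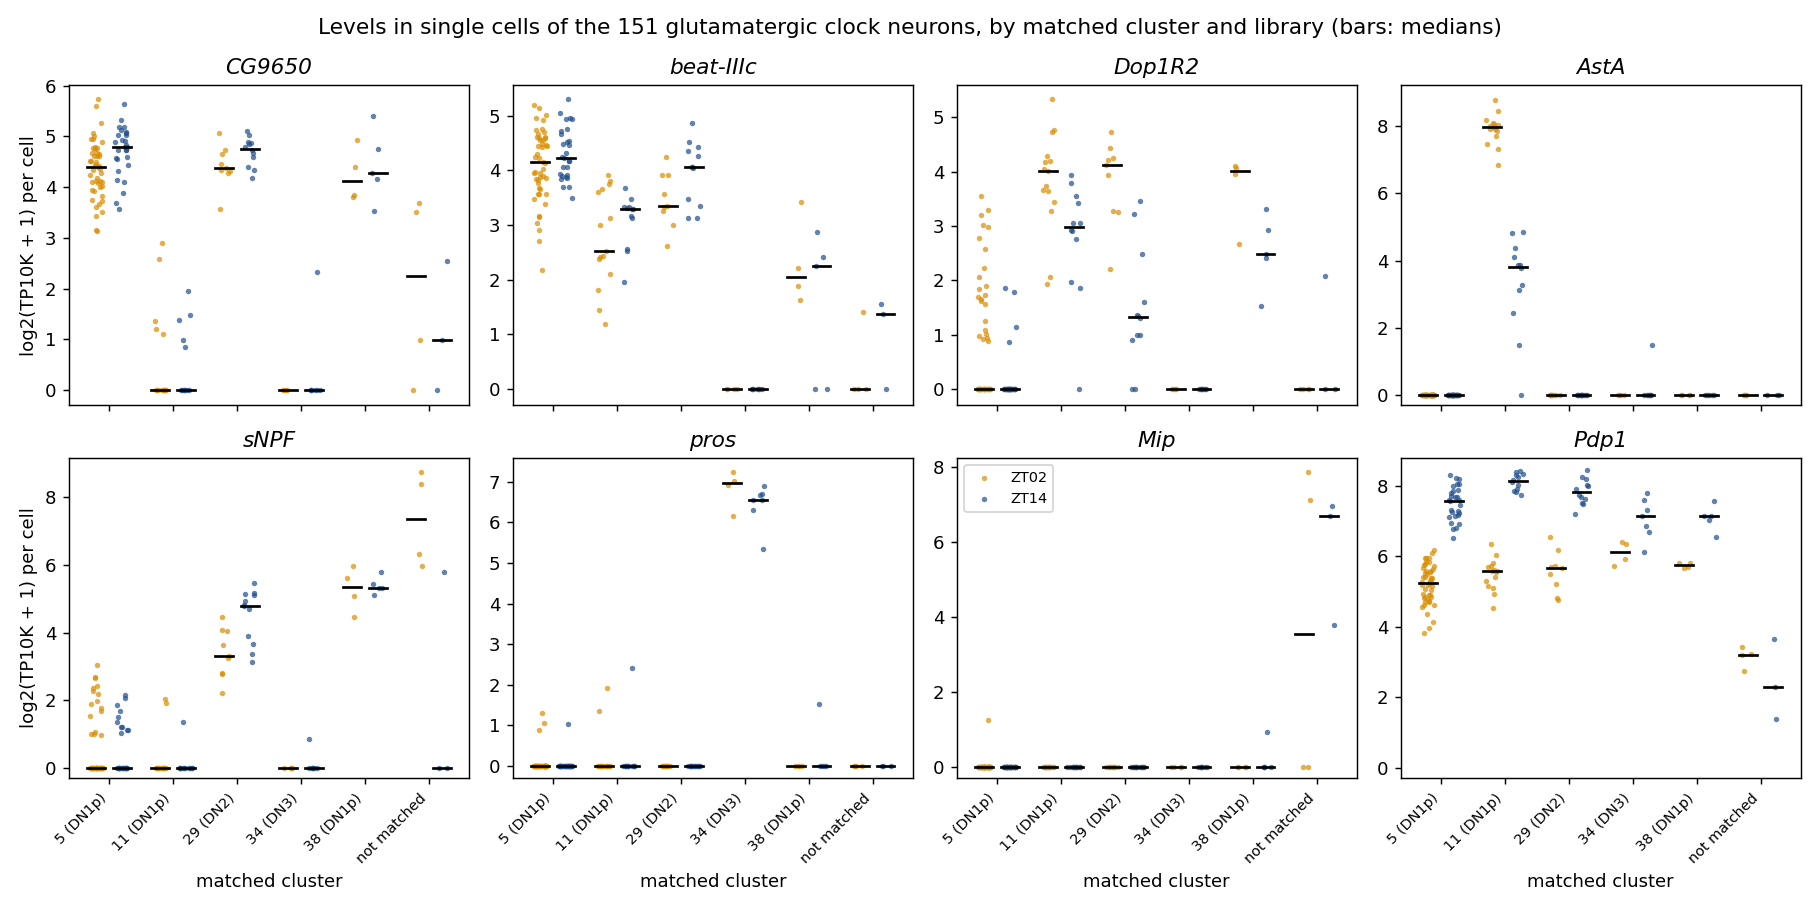
Levels of 8 genes in each of the 151 members, as log2(TP10K + 1) on the y axis, by the cluster the cell matched on the x axis; orange points are cells of the ZT02 library, blue points cells of the ZT14 library, and bars are medians. CG9650 and beat-IIIc were read in every cell of cluster 5 and, in cluster 34, in 1 and 0 of 11 cells, AstA sits in cluster 11, pros in cluster 34 and Mip in cells that matched none of the 5 clusters.

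Cluster 11 was the source of AstA, the precursor of allatostatin A (chromosome 3R, 24760530-24765071, minus strand). It stood at 249.9 TP10K at ZT02 and 13.3 TP10K at ZT14 in these 27 cells and had no UMI in cluster 5 in either library. The same cluster carried klg, an immunoglobulin adhesion gene, at 23.1 and 23.8 TP10K, Rh7, a rhodopsin gene with a known role in light input to clock neurons (chromosome 3L, 12164205-12175482, minus strand), at 12.1 and 20.6 TP10K, and the diuretic hormone precursor Dh44 at 5.78 and 20.1 TP10K. Dop1R2 was high there, at 14.5 and 7.98 TP10K, and CG9650 low, at 1.07 and 0.55 TP10K. The VGlut limit cut through this kind of cell. Its members had VGlut at 13.97 and 18.7 TP10K, and 19 other clock cells that matched cluster 11 had VGlut from 1.59 to 9.89 TP10K. In all, 33 other clock cells matched 1 of the 5 clusters, 32 of them under the VGlut limit.

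Cluster 29 carried sNPF, the short neuropeptide F precursor, at 10.97 and 26.0 TP10K, the lipoprotein receptor gene mgl at 9.70 and 12.4 TP10K and CARPA, a carbonic anhydrase-related gene, at 20.9 and 5.69 TP10K. CNMaR, the receptor of the CNMa peptide, stood at 9.07 and 2.60 TP10K in cluster 29 and at 12.2 and 4.51 TP10K in cluster 38, while cluster 5 had 0 UMIs at ZT02 and 0.0333 TP10K at ZT14. Among members, then, the receptor gene lay in clusters 29 and 38 and the peptide gene in none, since the rule left CNMa cells out. Cluster 34 stood apart from the other members in the given markers. CG9650 was read in 1 of its 11 cells, beat-IIIc and Dop1R2 in 0 of 11, too few cells to call either absent, and gl, a DN1p marker gene that encodes the transcription factor glass, had no UMI in it in either library. Its cells had the homeobox gene pros at 113.5 and 92.5 TP10K, the zinc finger gene mamo at 55.6 and 87.7 TP10K and Nplp1, a neuropeptide-like precursor, at 17.96 and 14.1 TP10K. The members as a whole are therefore called by their rule and not by the 3 markers.

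The 7 remaining cells (4 and 3) matched none of the 5 clusters. Their best correlations ran from 0.489 to 0.597, and they had 3 to 7 clock gene UMIs each and Pdp1 at 7.59 and 7.65 TP10K, where the lowest of the 5 clusters had 38.4 TP10K. These 7 cells held 99.7% of the members' UMIs of Mip, the precursor of myoinhibitory peptides, 99.1% of those of Trh, an enzyme gene of serotonin synthesis, 92.9% of those of Dh31 and 72.8% of those of sNPF. Trh came from 2 ZT02 cells of 21057 and 18591 UMIs, the first of them the deepest of all members, and whether these barcodes hold more than 1 cell was not tested. Hug, the hugin precursor, had 2037 UMIs in members, 2018 of them in 1 cell of cluster 11. Values of these genes over all members therefore rest on few cells, and results were also obtained without the 7 cells.

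**Figure D2:**
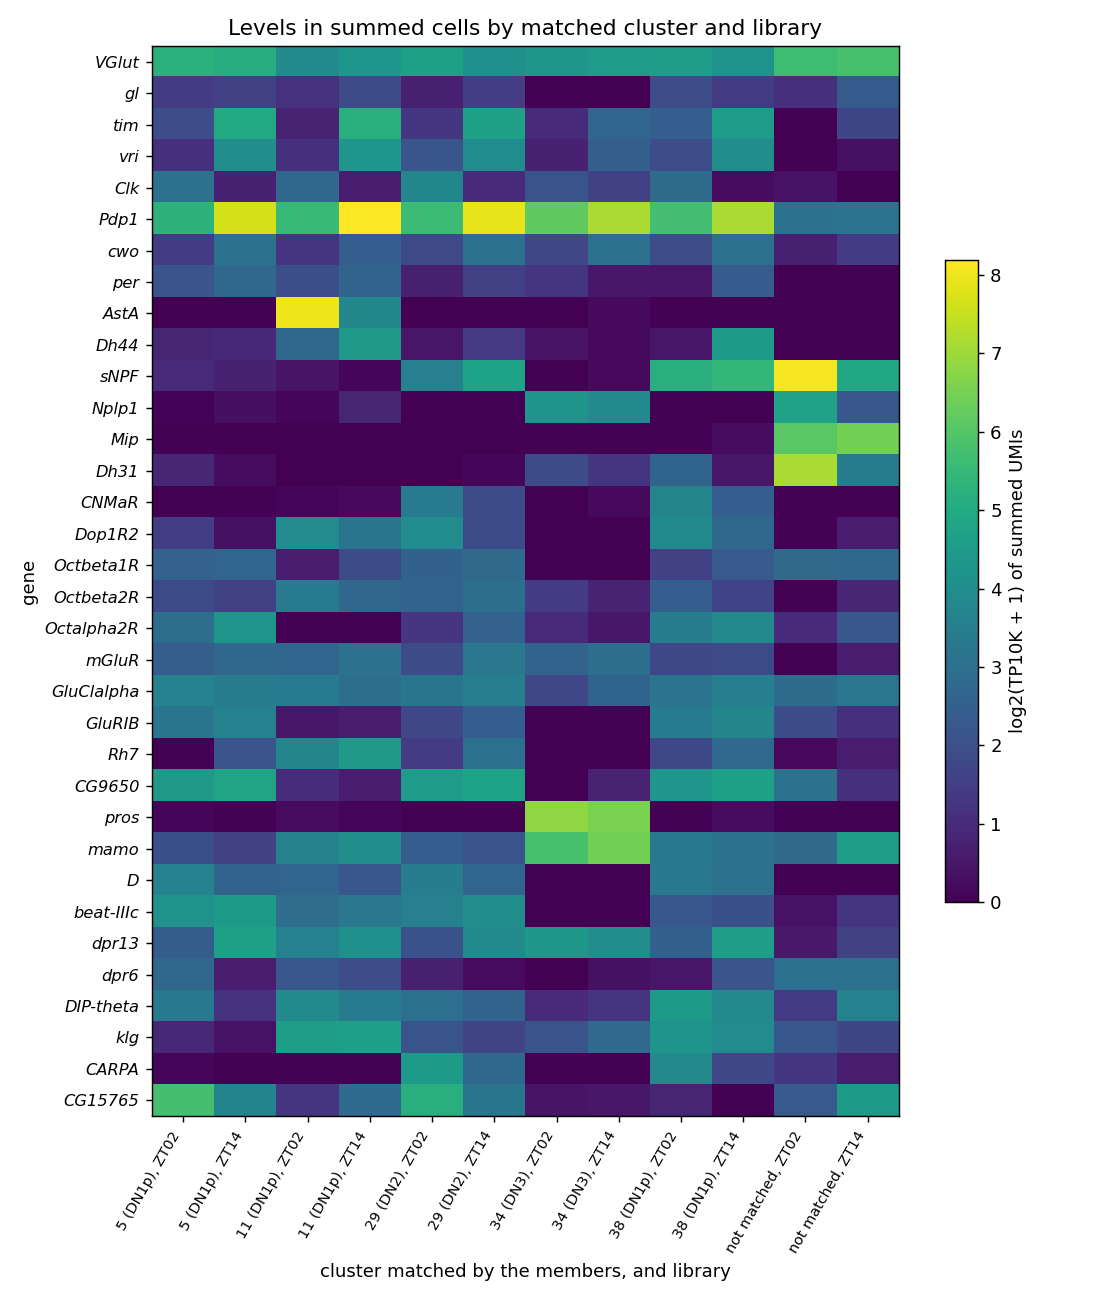
Levels of 34 genes (y axis) in the summed UMIs of the members by matched cluster and library (x axis), coloured by log2(TP10K + 1). Pdp1 and tim are brighter at ZT14 in each of the 5 clusters, while AstA, pros, CARPA and Mip are each bright in 1 or 2 kinds of cell.

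How members differed from the other clock cells was asked on 4 sums, of members and of others at each time. The library entered as a block in edgeR's quasi-likelihood test with Benjamini-Hochberg adjustment over 6945 genes. Calls needed an adjusted p under 0.05 together with a log2 difference of at least 0.32. Calls were 181 genes higher (2.61%) and 772 lower (11.1%) in members, or 450 higher and 715 lower on total UMIs without TMM factors, which shifted the median of all genes from -0.03 to 0.16 on the log2 scale. The 2 libraries behind each test also differ in time, and nothing in the labels says how many cultures of flies they came from, so p-values measure only the spread between these 4 sums. The other clock cells hold 78 cells that matched cluster 2, which the study describes as cells of several clock neuron groups. In those the glial genes Gs2, Eaat1 and nrv2 stood at 13.4, 12.1 and 7.02 TP10K and the neuronal gene nSyb at 0.241 TP10K. With these 78 cells left out, 141 genes were higher and 506 lower.

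Of 15 glutamate and GABA receptor genes tested, 6 were called higher and 9 were not called, where 2.61% of all genes were higher. Their median log2 difference was 0.34 against -0.03 over all genes. mGluR, the metabotropic glutamate receptor (chromosome 4, 936819-949441, plus strand), stood at 4.13 TP10K at ZT02 and 6.18 TP10K at ZT14 in members and at 1.10 TP10K in the other clock cells at each time. The log2 difference was 2.01 ± 0.19 (SE, edgeR adjusted p = 4.08e-05). GluClalpha, the glutamate-gated chloride channel, had 9.79 and 8.79 TP10K against 2.67 and 2.79 TP10K (1.57 ± 0.15, adjusted p = 5.28e-05). The AMPA-type subunit genes GluRIA and GluRIB were at 2.65 and 3.34 TP10K and at 5.51 and 6.61 TP10K in members, above 0.694 and 0.861 TP10K and 1.36 and 1.94 TP10K in the other clock cells. Their log2 differences of 1.75 ± 0.17 and 1.70 ± 0.16 (adjusted p = 4.37e-05 and 3.54e-05) were not called in the sum of members outside cluster 5, at 0.11 (adjusted p = 0.87) and 0.41 (adjusted p = 0.21). By cluster over both libraries, GluRIB stood at 9.45 TP10K in cluster 5, 11.3 in cluster 38, 3.77 in cluster 29 and 0.502 in cluster 11, with no UMI in cluster 34. GluRIA stood at 4.91, 3.38, 2.05, 0.335 and 0.103 TP10K in the same order of clusters.

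Of 16 monoamine receptor genes, 6 were called higher and 3 lower, against 2.61% and 11.1% of all genes, and the given marker Dop1R2 is 1 of the 6. Octbeta1R, an octopamine receptor gene, stood at 3.94 and 4.40 TP10K in members and at 0.352 and 0.971 TP10K in the other clock cells (2.60 ± 0.26, adjusted p = 6.59e-05). Octbeta2R was at 3.72 and 3.22 TP10K against 0.9501 and 0.935 TP10K (1.68 ± 0.16, adjusted p = 4.90e-05). Both octopamine receptor genes were called higher in members of cluster 5 alone and in members outside it. The serotonin receptor gene 5-HT1A had 5.17 and 9.51 TP10K against 2.19 and 3.03 TP10K (1.26 ± 0.17, adjusted p = 0.000429), but outside cluster 5 its difference of 0.53 was not called (adjusted p = 0.16). Among 12 acetylcholine receptor genes, 3 were higher and 2 lower, the latter near the share of all genes. nAChRalpha3 stood at 5.79 and 3.90 TP10K against 1.4999 and 1.29 TP10K (1.58 ± 0.16, adjusted p = 7.69e-05), and in members outside cluster 5 its difference turned to -0.23 (adjusted p = 0.65).

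Outside the receptors of small transmitters, 5 of 33 neuropeptide receptor genes were higher and 10 lower, against 2.61% and 11.1% of all genes. CNMaR was higher, at 1.14 and 0.765 TP10K in members against 0.179 and 0.201 TP10K (2.11 ± 0.23, adjusted p = 0.000114), and with members of cluster 5 alone it was lower (-3.79, adjusted p = 0.026). CARPA followed the same pattern, at 2.23 and 1.06 TP10K against 0.275 and 0.114 TP10K (2.90 ± 0.20, adjusted p = 4.13e-06), with -1.97 in cluster 5 alone (adjusted p = 0.11). Genes called higher both with cluster 5 alone and without it were CG17193 (2.63 and 2.52 TP10K against 0.147 and 0.192 TP10K, 3.73 ± 0.20, adjusted p = 7.30e-07), CG42402 (5.57 and 14.7 TP10K against 0.902 and 2.69 TP10K, 2.34 ± 0.16, adjusted p = 3.57e-06), nord, Toll-6 and CG30419. Toll-6, a leucine-rich repeat receptor of neurons, stood at 3.82 and 4.14 TP10K against 0.990 and 0.781 TP10K (1.98 ± 0.18, adjusted p = 3.54e-05). The ion channel regulator gene wake, known for its role in clock neurons that time sleep, was higher at 1.57 and 1.85 TP10K against 0.424 and 0.836 TP10K (1.30 ± 0.21, adjusted p = 0.0013), and this call was lost in DESeq2 (adjusted p = 0.16).

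**Figure D3:**
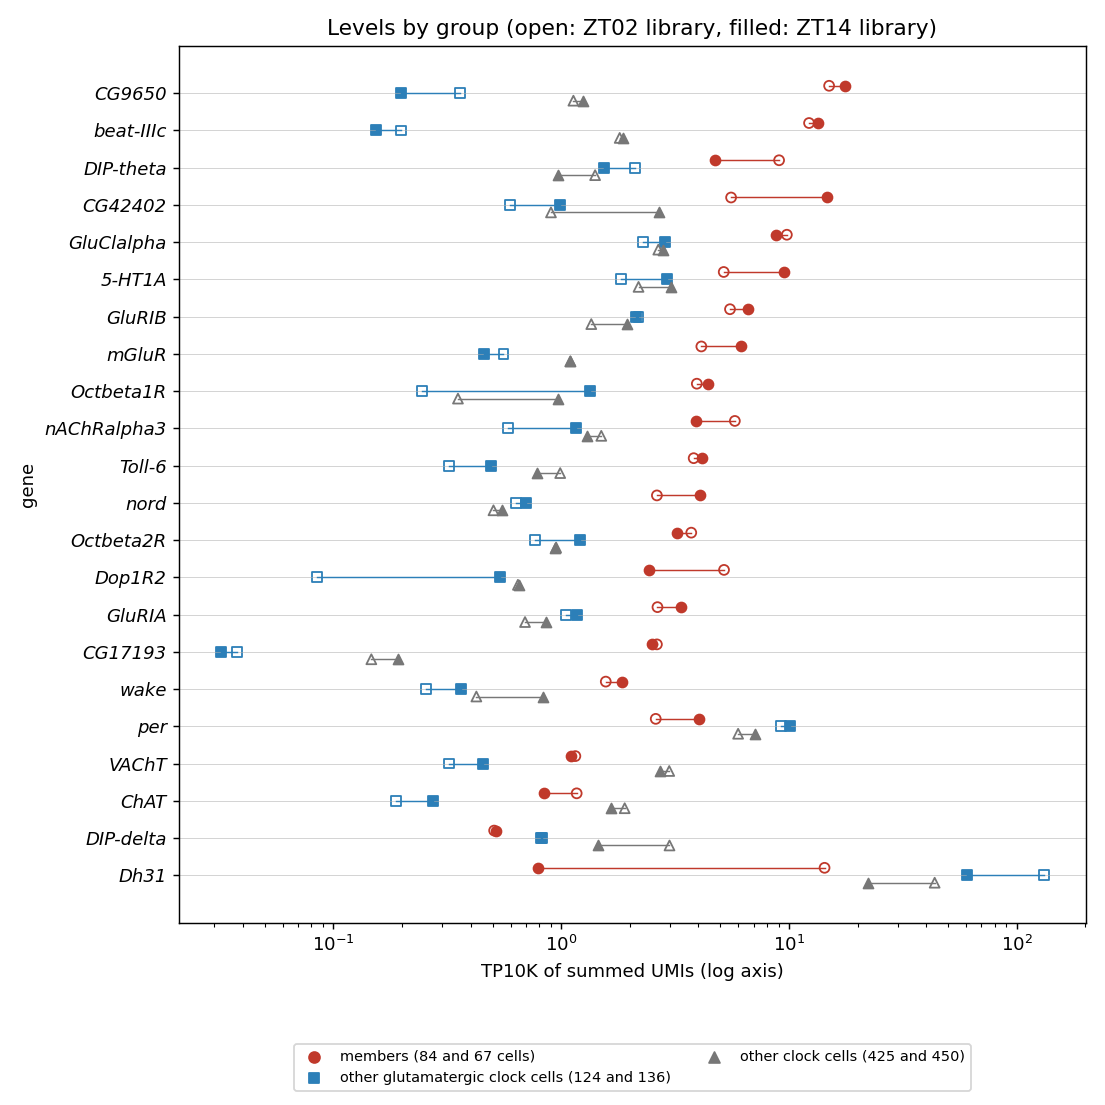
Levels of 22 genes (y axis) in TP10K of summed UMIs on a log axis, in members (red circles), the other glutamatergic clock cells (blue squares) and all other clock cells (grey triangles); open symbols are the ZT02 library and filled symbols the ZT14 library. For mGluR the members' 4.13 and 6.18 TP10K lie above all 4 other values, while for per and Dh31 members lie below them.

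Of 20 neuropeptide precursor genes tested, 2 were higher and 11 lower, against 2.61% and 11.1% of all genes, and the median log2 difference was -1.51. Pdf, the peptide gene of ventral lateral neurons, was at 3.37 and 0.765 TP10K in members and at 459.9 and 185.4 TP10K in the other clock cells (-7.67 ± 0.21, adjusted p = 5.35e-09). A Pdf UMI was present in 16.7% and 14.9% of thinned members and in 22.4% and 17.5% of thinned DANs, which are not Pdf neurons, so the share in members is read as background. ITP, a lateral neuron peptide gene, was at 0.262 and 0.162 TP10K against 112.2 and 42.9 TP10K (-8.64 ± 0.22, adjusted p = 5.35e-09). Mip (6.46 and 4.55 TP10K against 0.0240 and 0.0190 TP10K) and sNPF were the 2 higher genes. With the 7 unmatched cells left out, Mip was too rare to be tested and sNPF was no longer called (log2 difference 0.44, adjusted p = 0.86).

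Of 16 core clock genes outside the rule, 3 were lower and 13 were not called. With 11.1% of all genes lower, these 3 are not read as a result about the list. per stood at 2.60 and 4.05 TP10K in members against 5.98 and 7.07 TP10K in the other clock cells (-1.19 ± 0.17, adjusted p = 0.000639). DANs also carried per, in 74.5% and 66.5% of thinned cells against 35.7% and 53.7% of members, and they are not clock cells by the limits used here. Of 11 markers of other transmitters, 1 was higher, Trh, which rests on 2 cells, had no UMI at ZT14 and was not called by DESeq2 (log2 difference 0.23), and 6 were lower. The acetylcholine genes VAChT and ChAT were at 1.15 and 1.10 TP10K and at 1.17 and 0.839 TP10K, below the other clock cells' 2.98 and 2.70 TP10K for VAChT (-1.52 ± 0.17, adjusted p = 0.000133) and 1.90 and 1.65 TP10K for ChAT (-1.03 ± 0.18, adjusted p = 0.0025). The ChAT call was lost in DESeq2 (adjusted p = 0.26), in thinned cells (adjusted p = 0.61) and in cluster 5 alone (adjusted p = 0.20). By cluster, both had no UMI in cluster 11, and VAChT was at 2.03 and 4.45 TP10K in cluster 34.

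Surface protein and transcription factor genes moved in both directions. Over all genes, 2.61% were higher and 11.1% lower. Of 28 dpr and DIP genes, which encode binding partners of the immunoglobulin superfamily, 4 were higher and 10 lower. DIP-theta rose the most of them, at 9.05 and 4.75 TP10K against 1.41 and 0.965 TP10K (2.30 ± 0.16, adjusted p = 5.61e-06), though with members of cluster 5 alone it was not called (1.48, adjusted p = 0.069). DIP-delta, among those that were lower, stood at 0.508 and 0.515 TP10K against 2.99 and 1.46 TP10K (-2.23 ± 0.26, adjusted p = 0.000165). Most of the members' DIP-delta UMIs lay in cluster 34, with 8.13 and 4.45 TP10K there. In the beat and side families, 6 of 21 genes were higher, the given marker beat-IIIc among them, and 7 lower. The gene side, a ligand of beat proteins, was lower at 0.554 and 2.24 TP10K against 3.49 and 4.23 TP10K (-1.85 ± 0.32, adjusted p = 0.0026, or 0.056 with VGlut at 20 TP10K or more). Transcription factor genes were mostly lower, 31 of 59 with 8 higher, the given marker CG9650 among these, and a median of -1.60. The homeobox gene ct had 2 UMIs in all members against 2046 in the others, a ratio of 0.00624 (95% interval 0.000755 to 0.0226), and toy, a Pax6 gene, had 3 against 2065 (ratio 0.00927, 0.00191 to 0.0271). pros, at 5.23 and 9.23 TP10K against 28.1 and 65.7 TP10K, was lower (-2.82 ± 0.15, adjusted p = 7.00e-07) and came from cluster 34, described above.

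Other genes lower in members had no UMI in them at all. CG10799, rdhB, Col4a1 and CG5867 had no UMI in members and were at least 129-fold, 105-fold, 75.4-fold and 64.3-fold lower than in the other clock cells, with 3 UMIs over the members as the floor. With the cells of cluster 2 left out, CG10799, rdhB and CG15739 were too rare to be tested, so the bounds of CG10799 and rdhB rest on cells of cluster 2. CG5867 stood at 17.6 TP10K in cluster 2 and at most at 0.195 TP10K in the rest of the 15 larger clusters that the other clock cells matched, so its bound also rests mainly on those cells. Col4a1 reached at most 0.0741 TP10K in any of the 15, so its bound rests on other clock cells outside those clusters. DESeq2 did not call any of the 4 genes without a UMI (adjusted p from 0.22 to 0.29). Of 9 stress genes tested, 4 were lower and 5 not called, where 11.1% of all genes were lower. Hsp70Bc, 1 of the 4, was not called by edgeR once the cells of cluster 2 were left out (adjusted p = 0.44). The list as a whole was at 33.0 and 42.5 TP10K in members and 42.4 and 45.9 TP10K in the other clock cells, and Hsp70 copies are nearly identical, so Hsp70Bc is uncertain as a single gene. The 6 neuronal markers together stood at 100.9 and 81.6 TP10K in members and at 75.8 and 68.7 TP10K in the others.

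The other glutamatergic clock cells met the same VGlut limit as the members. They are 260 of the 875 cells above, so this comparison is not independent of the last. On 5617 genes, 97 were higher (1.73%) and 195 lower (3.47%) in members, or 115 and 135 without TMM factors, which moved the median of all genes from 0.00 to 0.19. mGluR, at 0.558 and 0.461 TP10K in the other glutamatergic cells, was 3.14 ± 0.25 higher on the log2 scale (adjusted p = 0.000648), GluClalpha, at 2.28 and 2.85 TP10K, 1.66 ± 0.18 higher (adjusted p = 0.0027), and Octbeta1R, at 0.246 and 1.34 TP10K, 2.45 ± 0.46 higher (adjusted p = 0.023). The Octbeta1R call was lost with VGlut at 20 TP10K or more (adjusted p = 0.12) and with 5 clock gene UMIs or more (adjusted p = 0.075). GluRIA, among the 4 glutamate receptor genes called, was not called outside cluster 5 (-0.41, adjusted p = 0.50), nor was GluRIB (adjusted p = 0.99). Of 15 glutamate and GABA receptor genes, 4 were higher with 11 not called. Among 14 monoamine receptor genes, 4 were higher, including the given marker Dop1R2, and 1 was lower. The lower gene was the tyramine receptor gene Oct-TyrR (0.770 and 0.545 TP10K against 2.95 and 1.64 TP10K, -1.97 ± 0.20, adjusted p = 0.0019, or 0.11 in thinned cells).

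AstA, sNPF and Mip were the 3 of 16 neuropeptide precursor genes that were higher, and 5 were lower, against 1.73% and 3.47% of all genes. AstA, which sat in cluster 11, was at 43.2 and 2.49 TP10K against 0.246 and 0.0256 TP10K (7.05 ± 0.25, adjusted p = 1.40e-05). It was not particular to the members, since all other clock cells together had AstA at 32.0 and 21.6 TP10K. Among those it stood at 298 TP10K in cells that matched cluster 12 and at 157 TP10K in cells that matched cluster 11. sNPF was at 28.7 and 8.73 TP10K against 0.378 and 0.173 TP10K (5.77 ± 0.22, adjusted p = 1.48e-05), and without the 7 unmatched cells it was still called (4.03, adjusted p = 0.0096). Dh31, a diuretic hormone precursor known in dorsal clock neurons, was lower at 14.3 and 0.795 TP10K against 132.1 and 60.7 TP10K (-4.78 ± 0.66, adjusted p = 0.0067). Among other clock cells by matched cluster, Dh31 was highest in clusters 32 and 0, at 211 and 158 TP10K. The same clusters had the highest CNMa, at 155 and 54.7 TP10K. Since the rule kept CNMa cells out of the members, the Dh31 difference is not independent of the choice of cells. CNMaR was higher in members, at 1.14 and 0.765 TP10K against 0.0473 and 0.211 TP10K (2.56 ± 0.48, adjusted p = 0.024; 0.076 with 5 clock gene UMIs or more). Among members, clusters 29 and 38 (30 cells) carried CNMaR, at 4.63 and 7.17 TP10K over both libraries, while the 76 cells of cluster 5, at 0 and 0.0333 TP10K, lay below the other glutamatergic clock cells.

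Acetylcholine genes turned in direction between the comparisons. Against the other glutamatergic clock cells, ChAT was higher in members, at 1.17 and 0.839 TP10K against 0.189 and 0.275 TP10K (1.87 ± 0.29, adjusted p = 0.011), and VAChT at 1.15 and 1.10 TP10K against 0.321 and 0.454 TP10K (1.34 ± 0.23, adjusted p = 0.017). DESeq2 did not call VAChT (adjusted p = 0.25), and outside cluster 5 neither gene was called (adjusted p = 0.095 for ChAT, 0.21 for VAChT). A ChAT UMI was present in 23.8% and 11.9% of thinned members, 3.36% and 4.69% of the other glutamatergic cells and 2.11% and 2.06% of DANs. The light input gene Rh7 was higher, at 2.32 and 6.90 TP10K against 0.492 and 2.39 TP10K (1.64 ± 0.22, adjusted p = 0.0052), where the ZT14 value of the other cells lay above the ZT02 value of the members. In members of cluster 5 alone Rh7 was not called (-0.44, adjusted p = 0.83), nor with VGlut at 20 TP10K or more (0.54, adjusted p = 0.42). per was again lower, at 2.60 and 4.05 TP10K against 9.24 and 10.2 TP10K (-1.77 ± 0.19, adjusted p = 0.0023).

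Among surface protein genes, dpr6 was at 4.74 and 1.43 TP10K in members and at 0.341 and 0.186 TP10K in the other glutamatergic cells (3.21 ± 0.26, adjusted p = 0.000647), and beat-Ic at 4.03 and 1.56 TP10K against 0.265 and 0.301 TP10K (2.93 ± 0.35, adjusted p = 0.0036). Toll-6 was higher here too, against 0.322 and 0.493 TP10K (3.10 ± 0.21, adjusted p = 0.000293). In the other direction, NetB, which encodes the guidance cue Netrin-B, was at 0.323 and 0.353 TP10K against 2.10 and 2.63 TP10K (-2.99 ± 0.21, adjusted p = 0.000344), and beat-Vc at 0.0923 and 0.177 TP10K against 2.47 and 1.99 TP10K (-4.21 ± 0.31, adjusted p = 0.000455). Of 43 transcription factor genes, 6 were higher, the given marker CG9650 among them, and 12 lower, against 1.73% and 3.47% of all genes. The forkhead genes slp1 and slp2 had no UMI in members, with upper 95% limits of 0.0224 and 0.0333 for their ratios. DESeq2 did not call them (adjusted p = 0.48 and 0.61). The gene ct had 2 UMIs against 718 (ratio 0.00549, 95% interval 0.000664 to 0.0199). CG15082 was at 0.0462 and 0.0294 TP10K in members against 42.8 and 27.6 TP10K (-10.01 ± 0.23, adjusted p = 1.36e-06). The adenylyl cyclase gene Ac13E, at 0.0308 and 0.0883 TP10K, was lower than the 3.93 and 2.45 TP10K of the other glutamatergic cells (-5.86 ± 0.39, adjusted p = 0.000289). By matched cluster of the other clock cells, CG15082 stood at 139.7 TP10K in cluster 3 and at most at 0.0473 TP10K in the rest. Cluster 3 had CCHa1, a gene of the rule, at 234.3 TP10K, so the CG15082 difference rests on 1 kind of cell that the rule left out. NetB, beat-Vc and Ac13E were also highest in cluster 3, at 6.59, 5.34 and 9.73 TP10K. So was slp2, at 3.45 TP10K, while slp1 stood at 6.27 TP10K in cluster 14 and 5.01 TP10K in cluster 3. The gene ct was highest in clusters 15 and 7, at 9.92 and 9.86 TP10K, and cluster 7 had the highest AstC, a gene of the rule, at 378 TP10K. How far these differences follow from the cells that the rule left out was not tested.

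Whether transcripts differed between morning and early night was read from 1 library at each time, so ratios of ZT14 to ZT02 carry exact Poisson intervals at 95% for counting error alone and no p. In such sums, fewer cells of a kind and less RNA per cell cannot be told apart. Of 1940 genes at 1 TP10K or more in either sum, 83 were at least 2-fold higher at ZT14 (4.28%) and 75 at least 2-fold lower (3.87%), against 98 (5.39%) and 64 (3.52%) of 1818 genes in the other clock cells. Genes of the clock loop differed between the libraries. Those in the rule, as a description, were tim at 2.08 and 25.8 TP10K, vri at 1.28 and 14.3, Clk at 6.73 and 0.765 and cry at 1.03 and 1.71 TP10K. Outside the rule, Pdp1 went from 39.3 to 203 TP10K, a ratio of 5.17 (4.95 to 5.39), against 3.92 (3.85 to 3.99) in the other clock cells. cwo went from 1.68 to 6.40 TP10K, a ratio of 3.82 (3.09 to 4.75) against 1.87 in the other clock cells, and per from 2.60 to 4.05 TP10K (1.56, 1.28 to 1.90). The 2-fold size was passed by 2 of the 10 core clock genes at 1 TP10K or more. Each of the 5 clusters had more Pdp1 at ZT14 than at ZT02, from 72.2 to 141 TP10K in cluster 34 and from 44.7 to 291 TP10K in cluster 11.

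Within cluster 5 the times were compared on 48 cells at ZT02 and 28 at ZT14. These cells did not share a Leiden cluster between the times, since those of ZT02 lay in 2 Leiden clusters (31 and 17 cells) and those of ZT14 in another (28 cells). Genes higher at ZT14 there included dpr13, from 4.36 to 24.9 TP10K (ratio 5.71, 4.82 to 6.81), against 3.34 (2.98 to 3.76) over all members and 1.90 (1.78 to 2.02) in the other clock cells. side went from 0.481 to 2.97 TP10K (6.16, 3.69 to 10.9) against 1.21 (1.13 to 1.30) in the other clock cells. Octalpha2R went from 6.79 to 18.3 TP10K (2.69, 2.32 to 3.14) against 1.15 (1.06 to 1.24). Rh7 had no UMI in the 48 ZT02 cells of cluster 5 and stood at 3.50 TP10K at ZT14, at least 43.6-fold higher with 3 UMIs as the floor. Over all members Rh7 rose from 2.32 to 6.90 TP10K (2.97, 2.47 to 3.59) against 2.02 (1.83 to 2.23) in the other clock cells. SK, a calcium-activated potassium channel gene, rose from 4.68 to 10.98 TP10K (2.35, 2.05 to 2.69) against 2.21 (2.11 to 2.31) in the other clock cells.

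**Figure D4:**
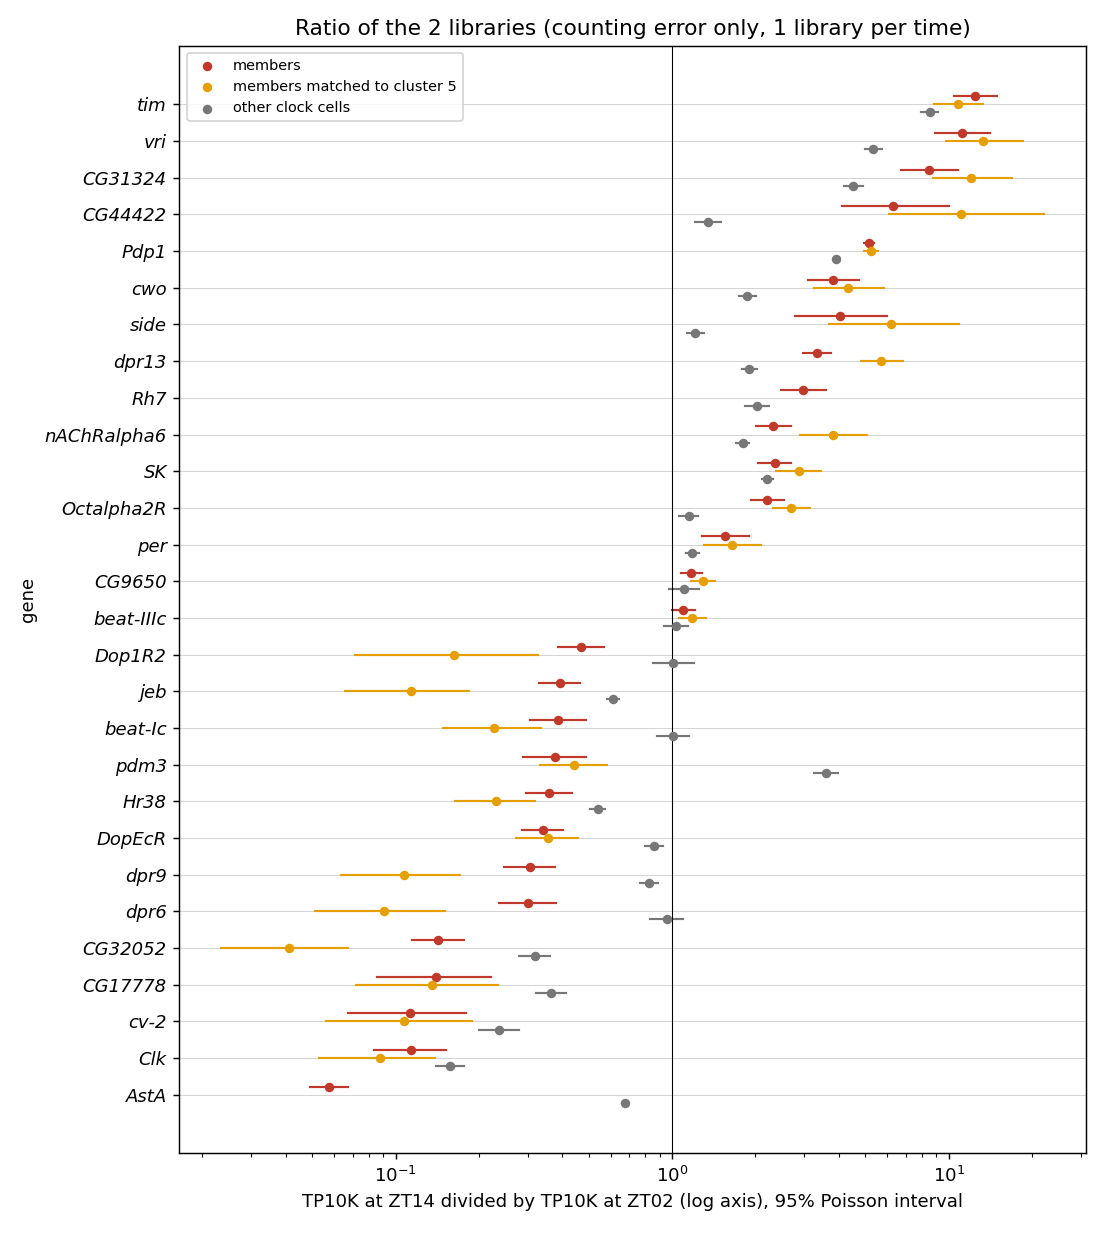
Ratio of TP10K at ZT14 to TP10K at ZT02 (x axis, log scale) for 28 genes (y axis), in members (red), members matched to cluster 5 (orange) and the other clock cells (grey), with exact 95% Poisson intervals. The clock genes tim, vri, Pdp1, cwo and per and the genes dpr13, side and Octalpha2R lie to the right of 1, where the libraries are equal, and Clk, dpr6, dpr9, jeb and CG32052 lie to the left, farthest in cluster 5; Rh7 has no ratio in cluster 5, where it had no UMI at ZT02, and AstA none, where it had no UMI at all.

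Genes lower at ZT14 in cluster 5 included CG32052 (chromosome 3L, 9787046-9808713, plus strand), from 12.998 to 0.533 TP10K (ratio 0.0410, 0.0233 to 0.0673), against 0.143 (0.114 to 0.177) over all members and 0.319 (0.280 to 0.362) in the other clock cells. Genes of the dpr family went in opposite directions. dpr6 fell from 5.88 to 0.533 TP10K in cluster 5 (0.0907, 0.0509 to 0.151) and dpr9 from 5.91 to 0.633 TP10K (0.107, 0.0633 to 0.171), while dpr13 was higher, as above. In the other clock cells dpr6 was at 0.954 (0.833 to 1.09) and dpr9 at 0.822 (0.763 to 0.886). jeb, the ligand of the Alk receptor, went from 5.30 to 0.600 TP10K in cluster 5 (0.113, 0.0658 to 0.184), and beat-Ic from 4.41 to 1.0003 TP10K (0.227, 0.148 to 0.336). These differences between members and other cells were not tested, as each time has 1 library.

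Receptor and regulator genes lower at ZT14 over all members included DopEcR, a receptor of dopamine and ecdysteroids, from 8.20 to 2.80 TP10K (0.341, 0.287 to 0.403), against 0.860 (0.794 to 0.930) in the other clock cells. The marker Dop1R2 went from 5.19 to 2.43 TP10K (0.468, 0.386 to 0.566) against 1.01 in the other clock cells. It was lower at ZT14 in each of clusters 5, 11, 29 and 38, while CG9650 (1.17, 1.08 to 1.28) and beat-IIIc (1.10, 0.997 to 1.21) stood near equal. Hr38, a nuclear receptor gene induced by neuronal activity, went from 6.14 to 2.21 TP10K (0.360, 0.296 to 0.435) against 0.538 (0.506 to 0.572) in the other clock cells. D, the SOX gene Dichaete, went from 8.56 to 4.22 TP10K (0.494, 0.427 to 0.570). AstA fell from 43.2 to 2.49 TP10K over all members (0.0575, 0.0490 to 0.0672), a change carried by cluster 11, against 0.675 (0.658 to 0.694) in the other clock cells. None of the 11 glutamate and GABA receptor genes at 1 TP10K or more passed 2-fold in either direction. Over all 1940 genes 4.28% were higher and 3.87% lower, so with 11 genes this count is near the share of all genes. Their median log2 ratio was 0.26 against 0.01 over all genes.

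The mitochondrial genes mt:ND6, mt:ND5, mt:ND4 and mt:ND1 were 13.7-fold, 7.26-fold, 6.36-fold and 5.92-fold higher at ZT14 in members and 8.11-fold, 4.81-fold, 4.67-fold and 6.34-fold higher in the other clock cells. The mitochondrial share also rose in DANs, from 0.543% to 1.12%. The stress genes Hsp68 and Hsp27 were 3.72-fold (2.56 to 5.52) and 3.13-fold (2.50 to 3.94) higher, against 2.71-fold and 1.27-fold in the other clock cells. The part of these differences in the ratios above was not tested. Hug, Trh, Dh31 and CG8401 were lower at ZT14 through the few cells named above or, for CG8401, through 1 cell with 89 of 92 UMIs. CG15537 was higher at ZT14 through 2 unmatched cells, with a level of 124 TP10K in the unmatched sum, and without the 7 cells its ratio was 0.257.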

How the data were processed

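Single cells of 2 libraries (ZT02 and ZT14, 1 library each) were measured with the 10X 3′ kit. The deposited values are UMI counts per gene and cell, which the authors made with Cell Ranger 6.0.2 and bcl2fastq 2.20, per the submitters' processing notes, on the dm6 genome, counting annotated exons. The authors filtered cells on genes, UMIs and entropy and removed Scrublet doublets before deposit, and no further doublet calling was done. From the 17178 features, 91 ERCC spike-ins were left out, and 2325 columns that match no sample label were not used here.

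The members and gene lists were chosen with earlier results of these data known. UMIs were summed per group and library, since cells are not replicates, and tested with edgeR 4.0.16 (quasi-likelihood, TMM, filterByExpr, library as a block) in R 4.3.3 with limma 3.58.1, with Benjamini-Hochberg adjustment over all genes tested. The genes of the rule were left out of these tests. DESeq2 1.42.0 was an alternative. On simulated counts for the clock cell comparison (7078 genes, 200 changed), 59% of 2-fold and 99% of 4-fold changes were recovered and 10 unchanged genes were called, and for the glutamatergic comparison (5554 genes) 81%, 100% and 15. The simulation gave every gene the same dispersion and no difference between the times. Its figures therefore do not cover genes whose group difference changed with time and are not error rates of the real tests. Cells were matched to clusters by Pearson correlation of at least 0.5 with a lead of 0.01, and clustered with scanpy 1.11.5 and leidenalg 0.10.2 (resolution 0.8, 1000 genes, 15 components, 10 neighbours). Figures were drawn with matplotlib 3.10.9, and tables and intervals made with pandas 2.3.3, scipy 1.17.1 and numpy 2.4.6 under Python 3.11.15. Thinning drew 2000 UMIs per cell for shares and 1000 for sums. Shares carry Clopper-Pearson intervals and ratios exact Poisson intervals at 95%, which cover counting error only; the floor for a gene at 0 was 3 UMIs.

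Genes named were the markers, the 10 with the largest called difference in each direction and up to 4 called per gene list, all at 1 TP10K or more in the higher group, and 5 per cluster; other genes named were chosen after their values were seen. Alternatives were DESeq2, no filter on low counts, thinned cells, a VGlut limit of 20 TP10K, a clock gene limit of 5 UMIs and leaving out a library. Total UMIs without TMM, members of cluster 5 alone, members outside cluster 5, members without the 7 unmatched cells and other cells without cluster 2 were added after seeing the data. Gene positions come from the BDGP6.54 annotation, which matched 166 of 171 names.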

Additional observations from a re-analysis of the deposited data

Results flagged for a closer look

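For 3 genes the ratio of ZT14 to ZT02 passed 2-fold in one direction in members and in the other direction in the other clock cells; with 1 library at each time these differences were not tested. pdm3, a POU domain transcription factor gene, went from 3.28 to 1.24 TP10K in members, a ratio of 0.377 (95% exact Poisson interval 0.289 to 0.488), and from 1.201 to 4.32 TP10K in the other clock cells, a ratio of 3.60 (3.25 to 3.99). In members of cluster 5 alone its ratio was 0.442 (0.334 to 0.580). CG13594 went from 0.569 to 1.55 TP10K in members, a ratio of 2.71 (1.85 to 4.06), and from 1.09 to 0.395 TP10K in the other clock cells, a ratio of 0.362 (0.303 to 0.431). Nos, the nitric oxide synthase gene, had a ratio of 0.173 (0.106 to 0.272) in members and 2.95 (2.56 to 3.40) in the other clock cells, and 48.0% of its UMIs in members lay in the 7 unmatched cells.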

How the results depend on the processing

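The settings tested different numbers of genes, so counts alone do not show calls lost or gained. Against the other clock cells, 181 genes higher and 772 lower of 6945 became 57 and 194 with DESeq2, all of them among the edgeR calls. With cells thinned to 1000 UMIs they were 88 and 227 of 3450. Calls were 450 higher of 6945 on total UMIs without TMM and 506 lower of 6730 without the cells of cluster 2. Against the other glutamatergic clock cells, 97 and 195 of 5617 became 58 and 97 with DESeq2, and 202 and 338 of 8659 without a filter on low counts. Lower calls were 100 of 1897 with thinned cells and 121 of 4926 with VGlut at 20 TP10K or more. The 83 genes higher and 75 lower at ZT14, of 1940, became 291 and 217 with thinned cells, and the share of genes these make up is not given here. The 4 subgroups of at least 10 cells became 8 in Leiden clusters. DESeq2 lost 22 of 65 named calls against the other clock cells and 13 of 57 against the other glutamatergic cells.

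Log2 differences against the other clock cells that turned were Rh7 at -0.33 with VGlut at 20 TP10K or more, then, with cluster 5 alone, CARPA at -1.97, CNMaR at -3.79, Trh at -1.79 and Rh7 at -1.27, and, outside cluster 5, nAChRalpha3 at -0.23 and Ca-alpha1T at 0.0106. Leaving out a library gave Trh -2.62 without ZT02 and 4.75 without ZT14. Against the other glutamatergic cells, Rh7 was at -0.44 in cluster 5 alone and GluRIA at -0.41 outside it. The ratio of ZT14 to ZT02 of CG15537 was 0.623 in cluster 5 and 0.257 without the 7 unmatched cells, and that of Nos was 8.73 in cluster 5. The composition of the members was changed by construction in these settings; for the other changes the cause was not tested.

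No paired analysis was possible because each time has 1 library, which already enters the fit as a block. With 1 library left out no test remained, and 64 of 65 named genes against the other clock cells kept their direction without ZT02 and 65 of 65 without ZT14. These genes were named because the same sums called them, so this agreement was largely set by the choice and is no separate evidence. Depth limits genes under 3 UMIs over the members, and rare clusters of 9 to 27 cells.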
